A study of Mus musculus with 6 samples.

Results

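The genes of the thioredoxin, peroxiredoxin and sulfiredoxin system were compared between Keap1-deleted and wild-type CD4+ CD25+ cells of the spleen, which carry the surface markers of regulatory T (Treg) cells. The 10 genes were Txn1, Txn2, Txnrd1, Txnrd2, Txnip, Srxn1, Prdx1, Prdx2, Prdx5 and Prdx6. They were chosen by name, and a transcript cluster (the probes the array groups for 1 transcribed locus) was taken where the probe annotation gave that symbol or an older name belonging to no other gene. Of the 10 genes, 8 had a cluster, among 30024 genes with a cluster of 1 symbol in the whole series. Of these 8, 7 had a cluster of their own. Prdx1 was measured on a cluster it shares with the predicted gene Gm21399, and Prdx2 had, besides its own, a cluster shared with Junb, an AP-1 transcription factor gene. A value on a shared cluster cannot be assigned to either gene. Prdx5 and Prdx6 were not analysed here.

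Cells came from untreated male C57BL/6 mice. In the Keap1_KO group (3 arrays, B, C and D), Vav-driven Cre removes a floxed Keap1 gene in blood-forming cells, so other blood cells of these mice lose it as well, and the genotype is labelled Keap1 -/-. The WT group (3 arrays, A, D and F) is labelled Keap1 +/+, and the labels do not say whether these mice carried Cre. The age is given as 10 to 12 months in one label and as 6 to 10 weeks in another. The labels do not tie each array to its own mouse, so the p-values reflect spread among arrays that may in part be technical. The cells were isolated magnetically from spleen as a bulk population, in which fewer cells of a type and less RNA per cell cannot be told apart.

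Thioredoxins are small proteins that reduce disulfide bonds in other proteins through a pair of cysteines. Thioredoxin reductases, which are selenoproteins, recharge them with electrons from NADPH, and Txnip binds and inhibits thioredoxin. Peroxiredoxins break down hydrogen peroxide with a cysteine that thioredoxin then restores, and sulfiredoxin repairs peroxiredoxins whose cysteine was oxidised too far. The system runs in parallel in the cytosol (Txn1, Txnrd1) and in mitochondria (Txn2, Txnrd2). Keap1 is the adaptor through which the transcription factor NRF2 (gene Nfe2l2) is degraded, and Txnrd1, Srxn1, Prdx1 and Txn1 are textbook NRF2 target genes. In dividing T cells thioredoxin also feeds ribonucleotide reductase, the enzyme that makes DNA precursors.

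NRF2 binds the antioxidant response element, whose core is TGANNNNGC, so the bases just before the annotated starts of these genes were searched for it. The windows hold the 250 bases before each start of the mouse RefSeq annotation (build GRCm38.p6), and all 8 measured genes matched a window by symbol. On either strand, 4 of the 8 genes held the core (Txn2, Txnrd1, Srxn1 and Prdx1), against 38.7% of all 27025 genes with a window. The narrower form TGACNNNGC, every match of which is also a match of TGANNNNGC, was found in Txnrd1 and Prdx1, against 11.5% of all genes. The E-box CACGTG was found in none of the 8 and in 6.86% of all genes. The last 160 bases before the start are shown for Srxn1, Prdx1 and the pair of Txnrd1 starts with a match, because these textbook NRF2 targets held a match. The window of Txn1, also a textbook target, held none and is not shown. Txn2, not named among those targets, held matches beginning 187 and 108 bases before its start and is not shown either. Capitals mark TGANNNNGC, or its reverse complement where the match lies on the other strand. The windows are chr2:152105364-152105523 for Srxn1, chr4:116685439-116685598 for Prdx1, and chr10:82859046-82859205 and chr10:82860181-82860340 for Txnrd1, all on the plus strand.
Srxn1: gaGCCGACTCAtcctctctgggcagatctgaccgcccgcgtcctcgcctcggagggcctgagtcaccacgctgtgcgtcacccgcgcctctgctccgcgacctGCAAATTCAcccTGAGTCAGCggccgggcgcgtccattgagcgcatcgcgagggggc
Prdx1: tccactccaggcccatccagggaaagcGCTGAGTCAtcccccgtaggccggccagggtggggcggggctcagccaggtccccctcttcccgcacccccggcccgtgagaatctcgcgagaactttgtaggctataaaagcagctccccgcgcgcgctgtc
Txnrd1 at the second of its 3 starts: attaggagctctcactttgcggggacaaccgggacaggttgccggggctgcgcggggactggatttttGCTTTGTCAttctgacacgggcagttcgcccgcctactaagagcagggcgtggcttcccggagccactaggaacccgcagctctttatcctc
Txnrd1 at the third start: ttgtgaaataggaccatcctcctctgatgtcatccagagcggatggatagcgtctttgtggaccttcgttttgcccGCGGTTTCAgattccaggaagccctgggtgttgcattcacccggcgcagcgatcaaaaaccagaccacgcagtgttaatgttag
Srxn1 held 3 matches, beginning 158, 57 and 45 bases before its start, and Prdx1 held 1, beginning 133 bases before it. The Srxn1 match nearest the start and the Prdx1 match overlap the AP-1 motif TGANTCA, which stood in windows of 7.82% of all genes. Txn1, Txnip, Prdx2 and Txnrd2 held no TGANNNNGC within their 250 bases. A match in these letters is a description and not a bound site.

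Values are deposited log2 expression values, and differences are Keap1_KO minus WT with the standard error (SE) of limma. Where 3 values are given per group, they stand in the order A, D, F for WT and B, C, D for Keap1_KO. The Keap1 cluster read 5.30 to 5.77 in WT and 4.70 to 4.89 in Keap1_KO. It lay below the intensity filter, and without that filter 8.33% of 30024 genes were lower on every Keap1_KO array, so this reading is a weak check of genotype (limma adjusted p = 0.563). Probes outside the floxed part would not report its loss. Nqo1, a quinone reductase and standard readout of NRF2, read 4.68 to 5.03 in WT and 7.55 to 9.14 in Keap1_KO (limma adjusted p = 0.310). Its WT values lay below every array median (5.16 to 5.43), so it passed the intensity filter only through the Keap1_KO arrays. Keap1_KO B stood apart from its group. Its correlation over the 16825 genes tested was 0.988 with WT A, against 0.961 and 0.958 with Keap1_KO C and D. All 11 T cell and Treg markers with their own cluster lay above the array median on all arrays, with list means of 13.47 to 14.04 in WT and 13.91 to 14.91 in Keap1_KO. Foxp3 lies on a shared cluster. Markers of other cells were present too. The 15 neutrophil markers averaged 7.23 to 8.31 in WT, 7.35 in Keap1_KO B, 8.93 in C and 10.93 in D. NK cell markers (9 measured) averaged 7.22 to 9.50 in WT and 8.38 to 10.14 in Keap1_KO, and B cell markers (9 measured) 6.13 to 7.92 and 6.62 to 8.01. Of 10 macrophage and monocyte markers (6.04 to 6.87 and 6.66 to 7.16), 6 lay at or above the array median on at least 3 arrays and 8 had a higher mean in Keap1_KO. Mertk, Fcgr1 and Cd14 lay below the median throughout, whereas Lyz2 read 8.21 to 11.73 in WT and 9.22, 12.75 and 15.13 in Keap1_KO.

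All 8 measured members had a higher mean in Keap1_KO, as did 56.5% of the 16825 genes and 40.7% of the 33347 clusters tested. Their median difference was 0.99 on the log2 scale, against 0.061 for all genes. For 4 of the 8 (Txn1, Txnrd1, Srxn1 and the Prdx1 cluster), every Keap1_KO array lay above every WT array, which held for 9.11% of all genes and, on the scale of clusters that the Prdx1 value belongs to, for 5.88% of clusters. Unadjusted limma p was under 0.05 for 5 of the 8, these 4 and Prdx2, all higher in Keap1_KO, against 8.38% of all genes and 4.65% of clusters. After Benjamini-Hochberg adjustment over all genes no member passed 0.05 by limma, nor did any other gene (0%), while 1733 genes had unadjusted p under 0.05. Among genes whose arrays did not overlap, 64.7% were higher in Keap1_KO, a share that reached 84.4% once array medians were set equal, which moved the median of all genes to 0.173.

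**Figure D1:**
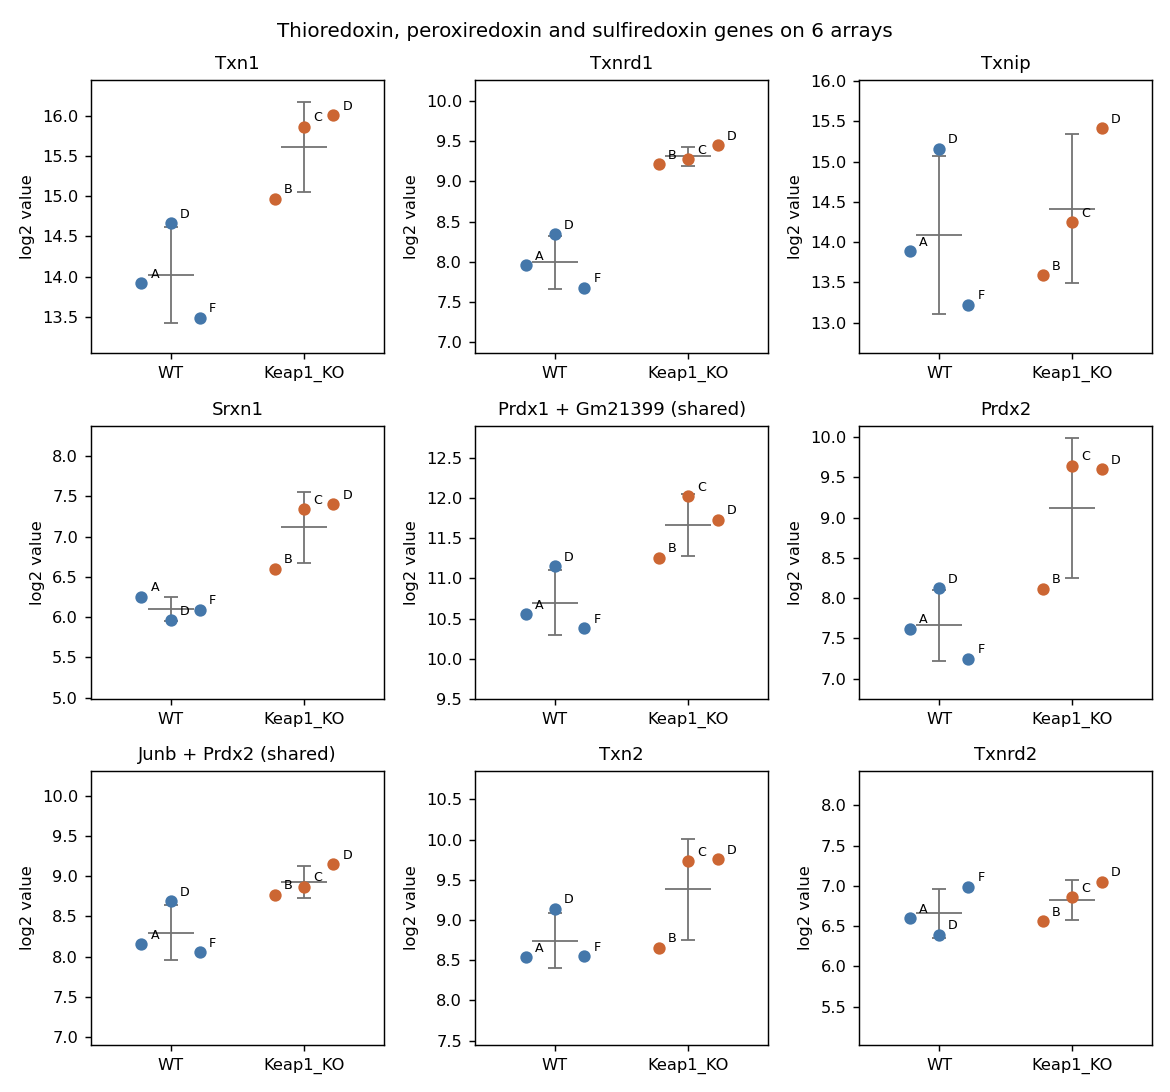
Deposited log2 values of the 9 clusters of 8 genes on 3 WT arrays (blue) and 3 Keap1_KO arrays (orange), with array letters; grey lines are group means and bars the SD. Every panel spans the same number of log2 units, and Keap1_KO B is the lowest of the Keap1_KO arrays in every panel.

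Txn1, the cytosolic thioredoxin, was higher on each Keap1_KO array. It read 13.92, 14.67 and 13.49 in WT and 14.97, 15.87 and 16.00 in Keap1_KO. The lowest Keap1_KO array lay 0.31 above the highest WT array, WT D. The means were 14.02 ± 0.59 and 15.61 ± 0.56 (SD, n = 3 each), a difference of 1.59 (SE 0.40) or 3.01-fold, with limma adjusted p = 0.476 and exact two-sided permutation p = 0.1. That p is the smallest that 3 arrays against 3 allow. Among all genes tested 1.91% had a larger difference.

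Txnip, whose protein holds thioredoxin inactive and also limits glucose uptake, did not separate by genotype. It read 13.89, 15.16 and 13.22 in WT and 13.59, 14.25 and 15.41 in Keap1_KO. WT D and Keap1_KO D, the arrays highest in each group, stood within 0.3 of each other, and the ranges overlapped over most of their width. The difference was 0.33 (SE 0.63) with a 95% interval of -1.20 to 1.85 (limma adjusted p = 0.822, exact permutation p = 0.7). Its direction was not stable, since it was -0.11 without WT F and -0.17 without Keap1_KO D. The interval spans changes in either direction as large as that of Srxn1, so these arrays do not show that Txnip stayed the same.

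Txnrd1, the cytosolic thioredoxin reductase, had the smallest limma p of the members and ranked 11 of 16825 genes by it. It read 7.96, 8.34 and 7.68 in WT and 9.22, 9.27 and 9.45 in Keap1_KO. The Keap1_KO arrays lay close together, and their lowest was 0.88 above WT D. The means were 7.99 ± 0.33 and 9.31 ± 0.12 (n = 3 each), a difference of 1.32 (SE 0.21) or 2.50-fold (limma adjusted p = 0.476, unadjusted p = 6.41e-04, exact permutation p = 0.1). Keap1_KO B, which was near WT for much of the transcriptome, stood 1.22 above the WT mean for this gene, next to 1.28 for C and 1.45 for D. The difference was 1.05 when the leading principal component across arrays, which took up 66.6% of the variance, entered the fit as a covariate. With its arbitrary sign set so that Keap1_KO had the higher mean, that component scored 60.47 in Keap1_KO C, 72.11 in D and -30.03 in B, against -70.04 to 4.54 in WT, so the covariate is not independent of genotype. With array quality weights the Txnrd1 difference was 1.35 and passed the adjusted threshold (limma adjusted p = 0.0408), as 11.2% of all genes then did. Without Keap1_KO B it was 1.37 and did not pass (limma adjusted p = 0.0501), whereas 3.38% of all genes then did.

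Srxn1, the sulfiredoxin gene, was dim and separated by genotype. It read 6.25, 5.96 and 6.09 in WT and 6.60, 7.34 and 7.40 in Keap1_KO. All WT arrays lay within 0.3 of each other, Keap1_KO B was 0.35 above the highest of them, and C and D were higher again. The difference was 1.01 (SE 0.26) or 2.02-fold, with limma adjusted p = 0.476 and exact permutation p = 0.1. Without Keap1_KO B it was 1.27 and passed the adjusted threshold (limma adjusted p = 0.0409), as 3.38% of all genes then did.

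The peroxiredoxins Prdx1 and Prdx2 reduce hydrogen peroxide in the cytosol. The Prdx1 cluster, shared with Gm21399, read 10.56, 11.15 and 10.38 in WT and 11.26, 12.02 and 11.73 in Keap1_KO. The groups did not overlap, but WT D and Keap1_KO B were 0.11 apart. The difference was 0.97 (SE 0.30) or 1.96-fold, with limma adjusted p = 0.603 over all clusters and exact permutation p = 0.1. With array quality weights it was 1.21 with limma adjusted p = 0.0441, and 8.21% of clusters then passed. Without Keap1_KO B it was 1.18 and did not pass (limma adjusted p = 0.143), and 0% of clusters then passed.

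Prdx2, an abundant protein of red cells, had the widest spread within Keap1_KO of the peroxiredoxin clusters. On its own cluster it read 7.62, 8.12 and 7.25 in WT and 8.11, 9.64 and 9.60 in Keap1_KO. Keap1_KO C and D stood well above WT, whereas B lay 0.01 below WT D and so inside the WT range. The difference was 1.46 (SE 0.47) or 2.75-fold (limma adjusted p = 0.476, exact permutation p = 0.2). Without Keap1_KO B it was 1.96 with limma adjusted p = 0.0412, and 3.38% of all genes then passed. With the leading principal component as covariate it was 0.48 (limma adjusted p = 0.998). The 7 erythroid markers with a cluster of their own averaged 5.83 to 6.27 in WT and 5.97 to 6.20 in Keap1_KO. Of these, 6 lay at or above the array median on at least 3 arrays, and Epb42 lay below it on every array. Of the 7, 4 had a higher mean in Keap1_KO. Hemgn (7.05) and Ermap (7.23) were highest on Keap1_KO D, whereas Alas2 (7.33) and Tspo2 (6.47) were highest on WT F. The part of red cells in the Prdx2 value was not tested. The cluster shared with Junb read 8.15, 8.69 and 8.06 in WT and 8.77, 8.87 and 9.15 in Keap1_KO. Its difference was 0.63 (SE 0.24), under the 1.46 of the cluster that carries Prdx2 alone.

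**Figure D2:**
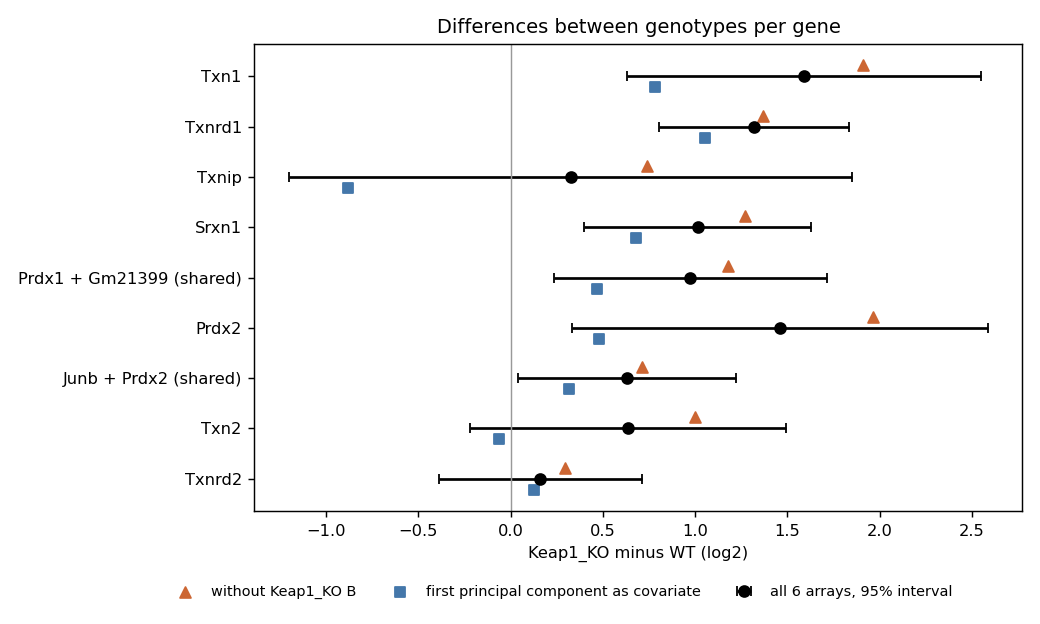
Keap1_KO minus WT on the log2 scale for each cluster, with the limma 95% interval over all 6 arrays (black), the value without Keap1_KO B (orange triangles) and the value with the first principal component as covariate (blue squares). Txnrd1 moves least among the genes with a difference above 1, from 1.32 to 1.37 and 1.05, while Txnip and Txn2 fall below 0 with the covariate.

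The mitochondrial genes had smaller differences than their cytosolic partners. Txn2, the mitochondrial thioredoxin, read 8.54, 9.14 and 8.55 in WT and 8.66, 9.73 and 9.76 in Keap1_KO. Keap1_KO C and D exceeded all WT arrays, and B lay among them. The difference was 0.64 (SE 0.35, 95% interval -0.22 to 1.49, limma adjusted p = 0.498, exact permutation p = 0.2), and with the first principal component as covariate it was -0.065. Txnrd2, the mitochondrial reductase, read 6.60, 6.39 and 6.99 in WT and 6.56, 6.86 and 7.06 in Keap1_KO. The arrays were interleaved, and the difference was 0.16 (SE 0.23, 95% interval -0.39 to 0.71, limma adjusted p = 0.750, exact permutation p = 0.5).

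The difference between partners was tested within each array, where the log2 value of the mitochondrial gene was subtracted from that of its cytosolic partner. Txn1 minus Txn2 was 5.38, 5.53 and 4.94 in WT and 6.31, 6.14 and 6.25 in Keap1_KO. The Keap1_KO arrays lay within 0.2 of each other and all above WT. The gap was thus 0.95 wider in Keap1_KO, a 1.94-fold shift of the ratio (exact permutation p = 0.1, the smallest possible). Txnrd1 minus Txnrd2 was 1.36, 1.95 and 0.69 in WT and 2.66, 2.42 and 2.39 in Keap1_KO. This gap was 1.16 wider in Keap1_KO, a 2.23-fold shift (exact permutation p = 0.1). For both pairs Keap1_KO B, the array nearest to WT in single genes, had the widest gap. A gap between clusters shows unequal change and not which transcript is more abundant. The partners were read at unlike intensities, with WT means of 14.02 for Txn1 and 8.74 for Txn2, and 7.99 for Txnrd1 and 6.66 for Txnrd2. The part of intensity in the gaps was not tested. Over all members, the 6 genes counted as cytosolic (Txn1, Txnrd1, Txnip, Srxn1, Prdx1 and Prdx2) had a median difference of 1.17. Of these, 4 of 6 were higher on every Keap1_KO array (9.11% of all genes, 5.88% of clusters). Both mitochondrial genes overlapped, with a median of 0.40. These group medians describe 6 and 2 genes and were not tested.

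**Figure D3:**
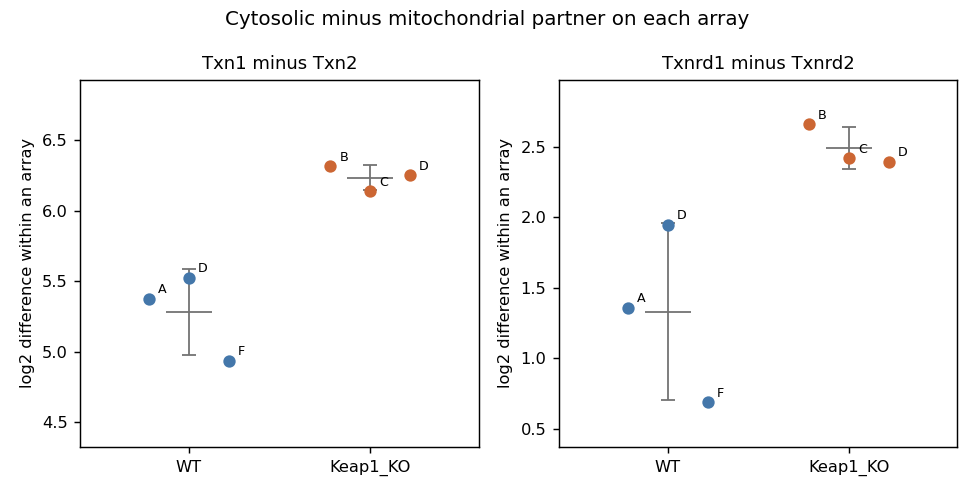
Log2 value of the cytosolic gene minus that of its mitochondrial partner on each array, for Txn1 with Txn2 and for Txnrd1 with Txnrd2; grey lines are group means and bars the SD. In both panels the 3 Keap1_KO arrays lie above the 3 WT arrays, and the gap between group means is 0.95 and 1.16.

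The order of the arrays was much the same from gene to gene. Keap1_KO B was the lowest Keap1_KO array on 9 of 9 clusters, which held for 46.9% of all genes, and Keap1_KO D was the highest on 7 of 9 (36.5% of all genes). WT D was the highest WT array on 7 of 9 clusters (46.8% of all genes). WT F was the lowest WT array on 6 of 9 (48.2% of all genes). Mean levels of several marker lists followed the same order, F, A, D in WT and B, C, D in Keap1_KO. The Treg and CD4 T cell markers averaged 13.47, 13.56 and 14.04 in that order in WT and 13.91, 14.87 and 14.91 in Keap1_KO. Not every marker of that list did so, since in Keap1_KO Ikzf2 fell from B to D (15.57, 15.00 and 14.92). Il2ra was lowest on Keap1_KO D (13.60). The 7 plasma cell markers averaged 7.40, 7.67 and 8.34, then 7.58, 8.35 and 9.26, and the 2 CD8 T cell markers 6.34, 6.99 and 7.79, then 6.67, 8.32 and 8.38. The macrophage and dendritic cell lists had this order too. In Keap1_KO, Lyz2 (9.22, 12.75 and 15.13) and Bst2 (9.15, 12.19 and 12.68) rose along it most steeply. Most other markers of these lists departed from it in Keap1_KO, such as Ccr2 (12.18, 10.92 and 11.43) and Clec9a (6.24, 5.55 and 5.85). Neutrophil markers had it in Keap1_KO (7.35, 8.93 and 10.93), but in WT they were lowest on A (7.23), with 7.59 on F and 8.31 on D. NK and B cell markers had it in WT, but in Keap1_KO they were lowest on C (8.38 and 6.62), below B (8.62 and 7.43). Erythroid and platelet markers had it in Keap1_KO but not in WT, where they were highest on F (6.27) and on A (6.95), respectively. The part of these cells in the member values was not tested. On Keap1_KO B, Txnrd1 lay 1.22 and Txn1 0.95 above the WT mean, next to differences of 1.32 and 1.59 over all arrays. On that array the Prdx1 cluster shared with Gm21399 was 0.56, Srxn1 0.50 and Prdx2 0.45 above the WT mean, while Txn2, Txnrd2 and Txnip were at -0.088, -0.10 and -0.50. Without Keap1_KO B the median of the 8 members was 1.22, and that of all genes 0.083.

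**Figure D4:**
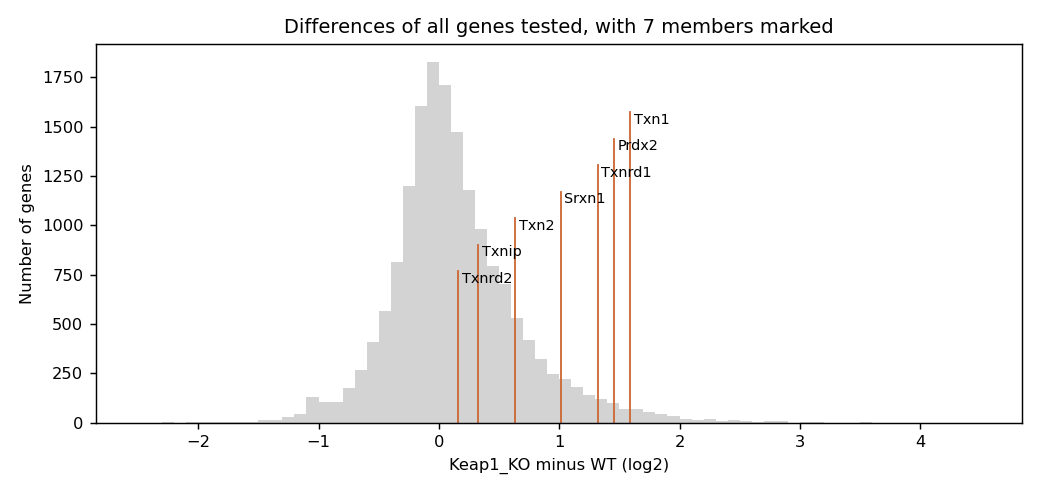
Number of genes by Keap1_KO minus WT difference (log2) for the 16825 genes tested, with orange lines at the 7 members that have a cluster of their own. Txn1, Prdx2, Txnrd1 and Srxn1 lie in the right tail above 1, and Txnip and Txnrd2 lie near the bulk of genes.

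The wider pathway was described from 59 further genes, of which 48 were tested, 5 lay below the intensity filter and 6 had no cluster of their own. Of the 48, 37 had a higher mean in Keap1_KO (56.5% of all genes) and 11 a lower one. Their median difference was 0.35, against 0.061 for all genes. The arrays of 6 did not overlap, all higher in Keap1_KO (9.11% of all genes), and none was lower on every array (4.96%). Without Keap1_KO B these counts were 26 higher and 7 lower, against 31.4% and 18.1% of all genes, and without WT D 15 were higher, against 23.7%. None passed limma's adjusted threshold over all genes, while 6 had unadjusted p under 0.05, all of them higher (8.38% of all genes) and none lower (1.92%).

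Glutaredoxins reduce disulfides with glutathione, alongside thioredoxin. Glrx, the cytosolic glutaredoxin, read 8.07, 8.52 and 7.72 in WT and 8.89, 10.41 and 10.21 in Keap1_KO. No Keap1_KO array reached down to WT, and the difference of 1.74 (SE 0.44) exceeded that of Txn1. The mitochondrial Glrx2 separated as well but by 0.18 (SE 0.15). Glrx5, also mitochondrial, serves iron-sulfur cluster assembly and overlapped at 0.63 (SE 0.37). Prdx4, the peroxiredoxin of the endoplasmic reticulum, differed by 0.74 (SE 0.41) with overlapping arrays. Plasma cell markers, of which 7 were measured, averaged 7.40 to 8.34 in WT and 7.58 to 9.26 in Keap1_KO, and their part in the Prdx4 value was not tested. Txnrd3, a testis-enriched reductase, lay below the filter.

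Thioredoxin-fold proteins numbered 18 tested genes, 15 of them higher in Keap1_KO (56.5% of all genes), with a median of 0.63. Clic1, a glutaredoxin-like protein that can insert into membranes, was the one whose arrays did not overlap. It read 11.11, 11.85 and 11.03 in WT and 11.97, 13.38 and 13.58 in Keap1_KO, a difference of 1.65 (SE 0.47), with B only 0.11 above WT D. Without Keap1_KO B the adjusted threshold was passed by 2 of the 48 genes of the wider list, Clic1 at 2.15 and Glrx at 2.21, and by 3.38% of all genes, so the list's share was near that of all genes. Members with a role in the endoplasmic reticulum overlapped between groups and were uneven. Txndc5 (1.03), P4hb (0.92) and Pdia6 (0.79) were among the higher ones. Pdia3 differed by 0.11, Tmx4 by 0.097, Tmx1 by -0.097 and Txndc16 by -0.24. Txnl1 (0.88) overlapped too. Tmx3, a membrane-bound oxidoreductase of the endoplasmic reticulum, had the lowest difference of the thioredoxin-fold group at -0.43 (SE 0.25).

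Substrates and partners of thioredoxin were mixed, with 6 of 9 tested genes higher (56.5% of all genes) and a median of 0.34. Rrm2, the regulatory subunit of ribonucleotide reductase, read 7.06, 7.45 and 7.28 in WT and 8.01, 7.83 and 8.11 in Keap1_KO. All Keap1_KO arrays exceeded WT, with B between C and D, and the difference was 0.72 (SE 0.18). Rrm1, the catalytic subunit, differed by 0.80 (SE 0.30) with Keap1_KO B inside the WT range, and Rrm2b, the p53-induced subunit, by -0.22 (SE 0.23). Msra, which repairs oxidised methionine with electrons from thioredoxin, read 5.93 to 5.98 in WT and 6.09 to 6.83 in Keap1_KO. Map3k5, the stress kinase ASK1 that thioredoxin holds inactive, differed by -0.063 (SE 0.15). Of the sestrins, Sesn1 differed by 0.21 and Sesn3 by -0.59, with overlapping arrays.

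**Figure D5:**
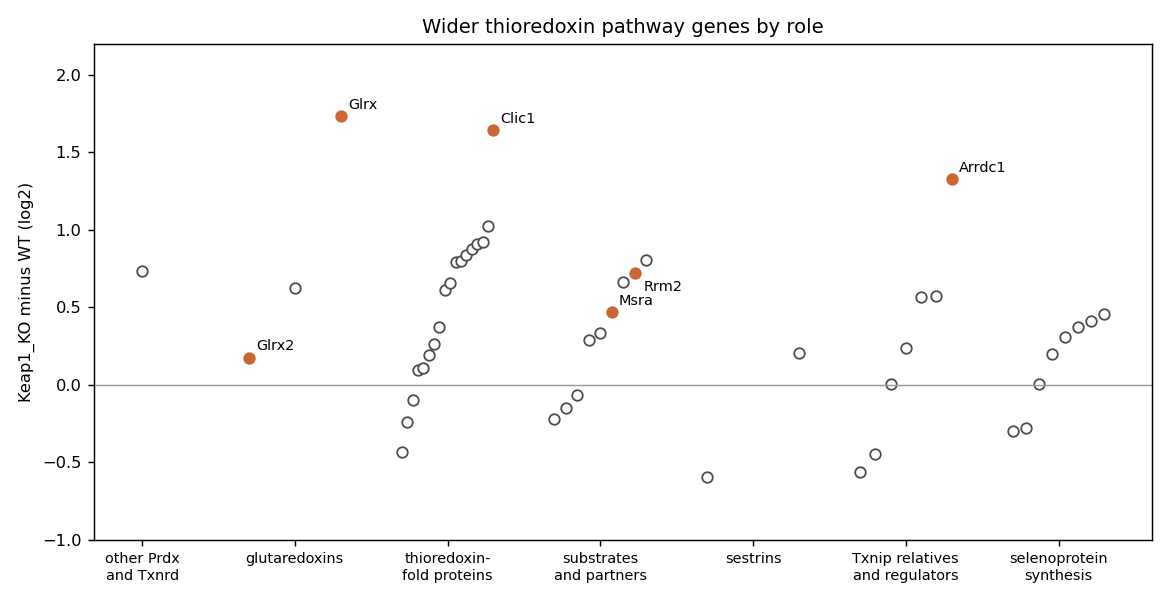
Keap1_KO minus WT difference (log2) of the 48 tested genes of the wider pathway, grouped by role; filled orange points with names are the 6 genes whose Keap1_KO arrays all lie above all WT arrays, and open points are genes whose arrays overlap. Glrx (1.74), Clic1 (1.65) and Arrdc1 (1.33) are highest.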

How the data were processed

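Gene expression was measured on 6 arrays, 3 per genotype, from 40 ng of amplified RNA each, per the labels' protocols. The deposited table holds log2 values for each transcript cluster. The submitters' processing notes name RMA beside Affymetrix Expression Console and Transcriptome Analysis Console; versions and genome build are not given in the sources used here. RMA subtracts background, makes array distributions equal and summarises the probes of a cluster. Values ran from 1.88 to 19.93 and 1268 clusters exceeded 16, the limit of a 16-bit scanner, so a rescaling that no source states lies behind them and folds are on the deposited scale. Array medians were 5.16 to 5.43. The number of arrays limits the precision.

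Of 65528 clusters, 30354 carried 1 symbol, 2118 several and 33056 were unnamed here; Entrez identifiers gave the current symbols. A cluster was tested at or above its array's median on at least 3 arrays, and the one with the highest mean stood for a gene, which left 16825 genes. Shared clusters were fitted among all 33347 clusters passing the filter. Keap1_KO and WT were compared with limma 3.58.1 under R 4.3.3 (lmFit and eBayes at their defaults, two-sided p adjusted by Benjamini-Hochberg, threshold 0.05), after a test on simulated data, and with exact two-sided permutation tests over arrays. Genes below the filter take values from the fit without it. Promoter letters come from RefSeq, build GRCm38.p6. All members, Keap1 and Nqo1 are named, with chosen relatives and wider-list genes whose arrays did not overlap; other wider-list genes given as examples were named after their values were seen. The members and lists were chosen with earlier results of these data known.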

Additional observations from a re-analysis of the deposited data

How the results depend on the processing

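The difference kept its direction, though not its size, under all alternatives tried for Txn1, Txnrd1, Txnrd2, Srxn1, Prdx2 and both shared clusters. Srxn1 and Txnrd2 did not pass the stricter filter and have no value there. With the first principal component as covariate Txn1 fell from 1.59 to 0.78, Prdx2 from 1.46 to 0.48 and Srxn1 from 1.01 to 0.68. The Prdx1 cluster fell from 0.97 to 0.47 and Txnrd1 from 1.32 to 1.05. Under this covariate Txn2 was -0.065 and Txnip -0.88. The wider list then had 22 genes higher and 26 lower, and the median of all genes was -0.0071. With array quality weights 5 members passed the adjusted threshold (Txn1 1.84, Txnrd1 1.35, Srxn1 1.10, Prdx2 1.80 and the Prdx1 cluster 1.21), as did 9 genes of the wider list and 1880 of all genes (11.2%; 8.21% of clusters). Under limma with an intensity trend and robust spread 1 gene passed, the predicted gene Gm20658. Limma fitted on the pair gaps alone placed both under an unadjusted p of 0.05 (Txn1 with Txn2 0.95, Txnrd1 with Txnrd2 1.16). That fit pooled its spread over these chosen pairs only, so its p-values are a weak measure. Leaving out any Keap1_KO array gave the Txnrd1 gap an exact permutation p of 0.2, against 0.1 for the Txn1 gap.

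Leaving out each array in turn, differences ranged from 1.16 to 1.49 for Txnrd1, 1.32 to 1.91 for Txn1, 0.87 to 1.27 for Srxn1, 1.20 to 1.96 for Prdx2 and -0.17 to 0.86 for Txnip. Genes past the adjusted threshold ranged from 0 to 569 of all genes and from 0 to 2 of the wider list, the highest without Keap1_KO B. Genes with no overlap ranged from 1793 to 5277 higher and 1132 to 3042 lower over all genes, and from 6 to 26 higher and 0 to 7 lower in the wider list. Groups of 2 arrays separate more easily. Without WT F 6 genes of the wider list were lower on every Keap1_KO array, against 11.2% of all genes, and without Keap1_KO D 3, against 6.73%. Against 1532 higher and 835 lower with no overlap, the lower count was 383 with centred arrays, 476 after repeated quantile normalization, 2500 without a filter and 316 with the stricter filter, where 841 were higher; the last 2 settings test 30024 and 9072 genes. Among genes with no overlap the higher share was 75.2% after repeated quantile normalization and 41.9% without a filter. No paired analysis was possible because the genotypes share only the letter D.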

Other observations

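Of 7 tested relatives and regulators of Txnip, 5 had a higher mean in Keap1_KO (56.5% of all genes) and 2 a lower one. Their median difference was 0.24 against 0.061 for all genes. Arrdc1, an alpha-arrestin like Txnip, read 6.54, 6.75 and 7.17 in WT and 7.63, 8.75 and 8.06 in Keap1_KO. The groups did not overlap, which held for 9.11% of all genes, and the difference was 1.33 (SE 0.33, limma adjusted p = 0.476). Arrdc3 differed by 0.0057 (SE 0.18), and Arrdc4, which like Txnip is induced by glucose, by 0.56 (SE 0.54). Mlx and Mlxip, which encode the partners of the glucose-sensing complex that activates Txnip, differed by 0.57 (SE 0.48) and 0.24 (SE 0.45). The forkhead factor genes Foxo1 and Foxo3 differed by -0.45 (SE 0.27) and -0.56 (SE 0.24), with overlapping arrays.

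Thioredoxin reductases carry selenocysteine, and all 8 genes of selenoprotein synthesis on the list were tested. Of these, 6 had a higher mean in Keap1_KO (56.5% of all genes) and 2 a lower one, with a median of 0.25. All 8 overlapped between groups, where 9.11% of all genes were higher and 4.96% lower on every Keap1_KO array. Sephs2, which makes the selenium donor, differed by 0.46 (SE 0.36), Eefsec, the elongation factor for selenocysteine, by 0.37 (SE 0.42), and Sepsecs, which completes selenocysteine on its tRNA, by -0.30 (SE 0.21).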
